A study of Mus musculus with 10 samples.

Results

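Cardiac fibroblasts are the matrix-making cells of the heart wall, and the epicardium is the mesothelial sheet on its surface. In mouse development part of the epicardium turns into fibroblasts and mural cells, and a small set of transcription factors, receptors and surface or secreted proteins is used to recognise the lineage in the adult heart. Here 10 such genes were followed in hearts of HIPK2 knockout and wild-type mice: the transcription factors Meox1, Wt1 and Tcf21, the surface proteins Pdgfra, Ly6a and Thy1, the adventitial fibroblast genes Pi16 and Dpt, and the mesothelial surface genes Msln and Upk3b. They were taken as every probe, controls left out, whose gene name in the array files equals one of the 10 symbols, which gave 13 of 56605 probes and 10 of 37074 gene names.

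The 5 knockout samples came from male HIPK2-/- mice on the C57BL/6 background, in which CRISPR injection of embryos had produced a frameshift deletion in the second exon of Hipk2. The loss is germline and present in all cells of the animal. The 5 wild-type samples came from male mice without that deletion. No treatment of either genotype was labelled, ages and the part of the heart taken were not given in the labels, and RNA came from snap-frozen cardiac tissue. Hipk2 encodes a nuclear kinase that acts on transcriptional regulators, and the comparison asks which cardiac transcripts differ when the intact gene is missing.

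Each sample was read on one 1-colour Agilent array. Signal is given as log2 of the processed spot signal minus the log2 75th percentile of its array, so 0 is the 75th percentile and 1 unit is a 2-fold difference within a probe. Knockout arrays were dimmer, with 75th percentiles of 286 to 460 signal units on knockout arrays and 462 to 542 on wild-type arrays (exact permutation p = 0.00794, the lowest of 252 arrangements, two-sided). The Hipk2 transcript gave no check of the genotype labels: its 3 probes differed by 0.04, -0.01 and 0.11 (log2) between knockout and wild type with overlapping groups, and their position relative to the deletion was not determined. Wild-type replicates 1 and 2 lay alone on one slide, and the other 8 arrays shared a second slide. The summed signal of the atrial markers Myl7, Myl4 and Sln, on a linear scale relative to the 75th percentile, ranged over 1.71 to 12.4 in knockout and 1.3 to 102 in wild type, so atrial marker signal varied widely within each genotype.

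Meox1 and Ly6a are the genes the comparison turns on, and Wt1 is the epicardial gene with more than one bright enough probe. The first 30 bases of each of these 60-base probes read as follows, 5′ to 3′.
Meox1, chr11:101738847-101738906, minus strand: ctaagattacatcaagctaattgtgcaagg
Ly6a, chr15:74825553-74825612, minus strand: tatgagttatagaagctccaaggtgggagt
Wt1, brighter probe, chr2:105013656-105013715, plus strand: ggtattagctgcatcactgtgtggatgtca
Wt1, dimmer probe, chr2:104974028-104974087, plus strand: tttaaaggcatgtgccaccatgccctgtca
Coordinates refer to mouse build mm9, as the array design gives them. The Meox1, Ly6a and brighter Wt1 probes carry RefSeq transcript accessions of these genes. The dimmer Wt1 probe carries an Ensembl transcript and lies upstream of the other on the plus strand. Exon and untranslated-region annotation of mm9 was not used here. Whether these stretches, that of the dimmer Wt1 probe included, also occur in other transcripts was not examined.

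Of the 10 genes, 8 had a probe well above background on all 10 arrays, 2 of these fell in knockout hearts (Meox1 and Ly6a), none rose and 6 did not pass the test. Across the 20607 genes tested, 4.94% passed the limma test in either direction at an adjusted p under 0.05, 612 genes or 2.97% by being lower in knockout. The median difference of the 8 was -0.43 (log2), beside 0.03 over all tested genes. The genes were picked with earlier results of these arrays known, so neither their count nor their median is independent evidence of a direction. In bulk tissue, fewer cells of a type and less RNA per cell cannot be told apart.

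**Figure D1:**
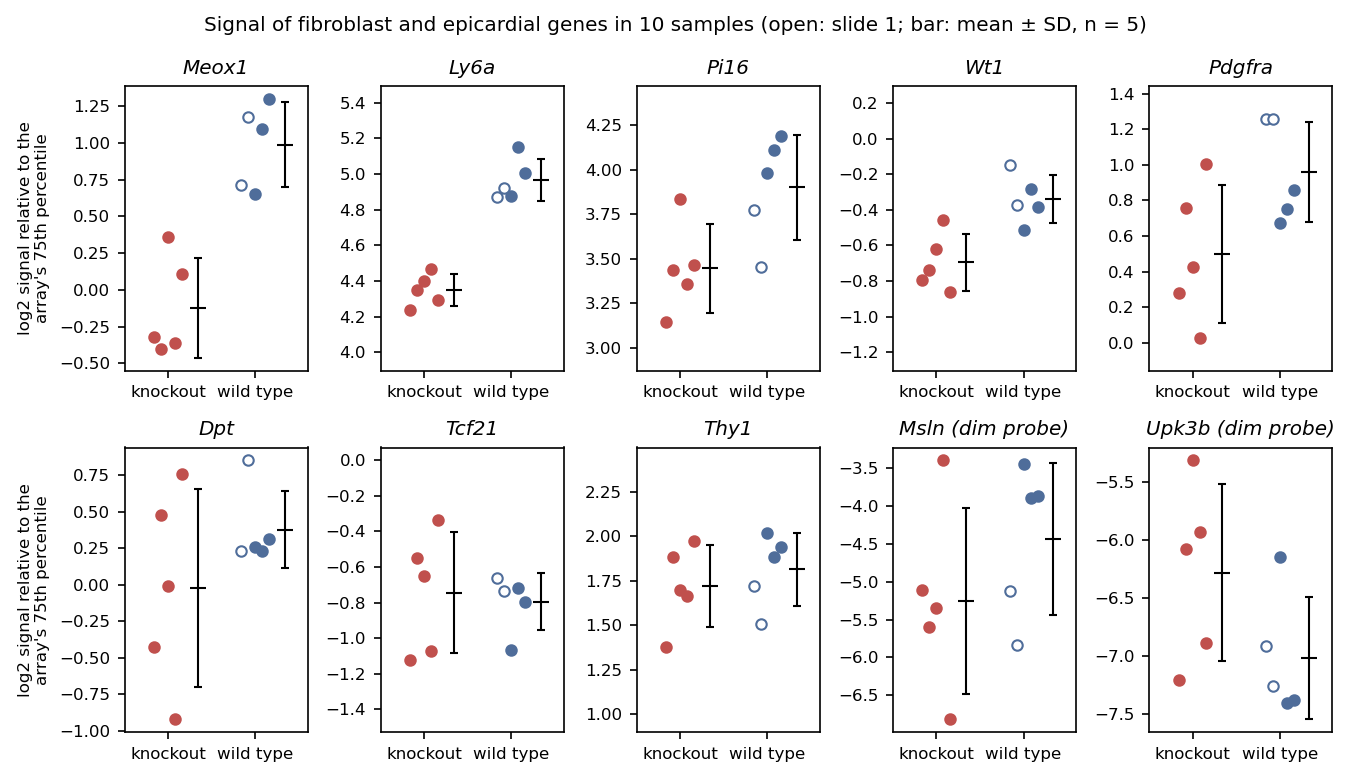
Log2 signal relative to the array's 75th percentile for the probe representing each of the 10 genes, in 5 knockout (red, left) and 5 wild-type (blue, right) samples, with mean ± SD; open circles are the 2 arrays of the first slide. All 5 knockout values of Meox1 and of Ly6a lie below all 5 wild-type values, and Msln and Upk3b sit near background.

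Among the transcription factors, Meox1 moved most. Meox1 is a homeobox factor of the early mesoderm that, in stressed mouse hearts, has been tied to fibroblast activation. Its log2 signal was -0.32, -0.41, 0.36, -0.36 and 0.11 in knockout replicates 1 to 5, against 0.71, 1.18, 0.65, 1.1 and 1.30 in wild-type replicates 1 to 5. The genotypes did not overlap: the highest knockout value lay below the lowest wild-type value. Meox1 was 2.16-fold lower in knockout (95% interval 1.63 to 2.86), a log2 difference of -1.11 ± 0.18 (SE, n = 5 each, limma adjusted p = 0.0141). Groups failed to overlap, with all knockout values below all wild-type values, for 4.44% of 20597 genes.

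Wt1, the zinc-finger factor used to mark the epicardium and found in some endothelial cells, was lower on average in knockout but did not pass. The brighter probe read -0.80, -0.74, -0.62, -0.46 and -0.86 in knockout, against -0.15, -0.38, -0.51, -0.28 and -0.38 in wild type. Knockout replicate 4 lay above wild-type replicate 3, and the other knockout values lay below every wild-type value. The difference was -0.35 ± 0.10 (log2, 95% interval -0.58 to -0.13, adjusted p = 0.0675). The dimmer probe gave -0.63 ± 0.20 when every probe was fitted (adjusted p = 0.0907), with knockout values of -3.46 to -2.40 and wild-type values of -2.56 to -2.32. That second difference was -0.12 under normexp background correction. The dimmer probe read 34.7 to 104 signal units, and the normexp offset of 50 units shrinks differences at that level.

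Tcf21, the helix-loop-helix factor of resident fibroblasts and their epicardial precursors, gave no called difference in either direction. It read -1.12, -0.55, -0.65, -1.07 and -0.34 in knockout, against -0.66, -0.73, -1.07, -0.72 and -0.80 in wild type. The knockout samples were more widely spread and enclosed the whole wild-type range. The difference was 0.05 ± 0.16 (95% interval -0.30 to 0.40, adjusted p = 0.865), and its sign turned without knockout replicate 5 (-0.052) or wild-type replicate 3 (-0.018). On the same arrays Meox1 minus Tcf21, which is free of array scaling, was 0.14 to 1.01 in knockout and 1.38 to 2.10 in wild type, without overlap. The Meox1 values alone already did not overlap, so this difference is not separate evidence. Meox1 minus Pdgfra overlapped, at -1.16 to -0.061 in knockout and -0.54 to 0.44 in wild type.

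Ly6a, the surface protein Sca-1 found on many mouse fibroblasts, progenitor cells and endothelial cells and induced by interferons, was the tightest of the surface genes. It read 4.24, 4.35, 4.4, 4.47 and 4.29 in knockout, against 4.87, 4.92, 4.88, 5.15 and 5.01 in wild type. Every knockout sample lay below every wild-type sample, with a gap wider than the SD of either genotype (0.09 in knockout, 0.12 in wild type). Ly6a was 1.53-fold lower in knockout (95% interval 1.35 to 1.74), a log2 difference of -0.62 ± 0.08 (SE, n = 5 each, adjusted p = 0.00879). On the same arrays Ly6a minus its relative Ly6e overlapped slightly, at -0.75 to -0.40 in knockout and -0.41 to 0.024 in wild type.

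Pdgfra, the receptor for PDGF ligands that labels resident cardiac fibroblasts, was measured by 3 probes. The brightest read 0.28, 0.76, 0.42, 0.03 and 1.00 in knockout, against 1.26, 1.26, 0.67, 0.75 and 0.86 in wild type. Both samples of the first slide held the highest values, and the wild-type samples of the second slide lay among the knockout ones. The difference was -0.46 ± 0.19 (95% interval -0.89 to -0.03, adjusted p = 0.158). It was -0.26 with slide as a block (adjusted p = 0.454) and on the second slide alone (adjusted p = 0.496). A second probe, well above background on 3 of 5 knockout and 5 of 5 wild-type arrays, gave -0.34 ± 0.22 (adjusted p over all kept probes 0.346) and 0.11 under normexp. That probe read 18.5 to 59.2 signal units, near the normexp offset of 50, so the normexp value cannot decide its direction. The third was well above background on 0 knockout and 2 wild-type arrays and was not tested.

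Thy1, a surface glycoprotein of fibroblasts, T cells and neurons, read 1.38, 1.89, 1.70, 1.66 and 1.97 in knockout, against 1.72, 1.5, 2.02, 1.88 and 1.94 in wild type. The groups overlapped almost completely, and the difference was -0.09 ± 0.13 (95% interval -0.39 to 0.20, adjusted p = 0.683). An interval of that width still allows a fall of up to 1.31-fold.

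The adventitial genes lay lower on average in knockout without passing. Pi16, a membrane-linked peptidase inhibitor of perivascular fibroblasts, read 3.14, 3.44, 3.83, 3.36 and 3.47 in knockout, against 3.77, 3.46, 3.98, 4.11 and 4.19 in wild type. Knockout replicate 3 lay above wild-type replicates 1 and 2, knockout replicate 5 lay just above wild-type replicate 2, and the other knockout values lay below every wild-type value. The difference was -0.45 ± 0.16 (95% interval -0.81 to -0.10, adjusted p = 0.110). It was past the threshold with slide as a block (-0.65, adjusted p = 0.0464) and under normexp (-0.50, adjusted p = 0.0375), while on the second slide alone it was -0.65 with an adjusted p of 0.0614.

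Dpt encodes dermatopontin, a small matrix protein common to fibroblasts of many tissues. It read -0.42, 0.48, -0.01, -0.92 and 0.76 in knockout, against 0.23, 0.85, 0.26, 0.23 and 0.31 in wild type. The knockout samples spanned a wider range (SD 0.68) than the wild-type samples (SD 0.27), and the difference was -0.40 ± 0.29 (95% interval -1.03 to 0.23, adjusted p = 0.387). Over the fits that left out 1 array it ranged from -0.60 without knockout replicate 5 to -0.18 without knockout replicate 4, and with atrial and fat scores as covariates it was -0.15.

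The mesothelial genes could not be compared. Msln, the mesothelin precursor, was well above background on 1 knockout and 3 wild-type arrays, with values of -6.82 to -3.40 in knockout and -5.83 to -3.45 in wild type. Upk3b, a uroplakin of mesothelial and epicardial cells, was above background on none of the 10 arrays. Of 16 further epicardial and mesothelial markers, 15 were on the array and 6 were bright enough to test, of which 0 passed in limma and 1 had an unadjusted p under 0.05. That gene, Aldh1a2, the retinoic acid enzyme of epicardium, differed by -0.69 (adjusted p = 0.112), and Nkain4 by 0.39 (adjusted p = 0.268). For comparison, 5602 of all 20607 tested genes had an unadjusted p under 0.05. Upk1b, Krt19, Bnc1, Pkhd1l1 and Krt7 were not above background on any array.

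**Figure D2:**
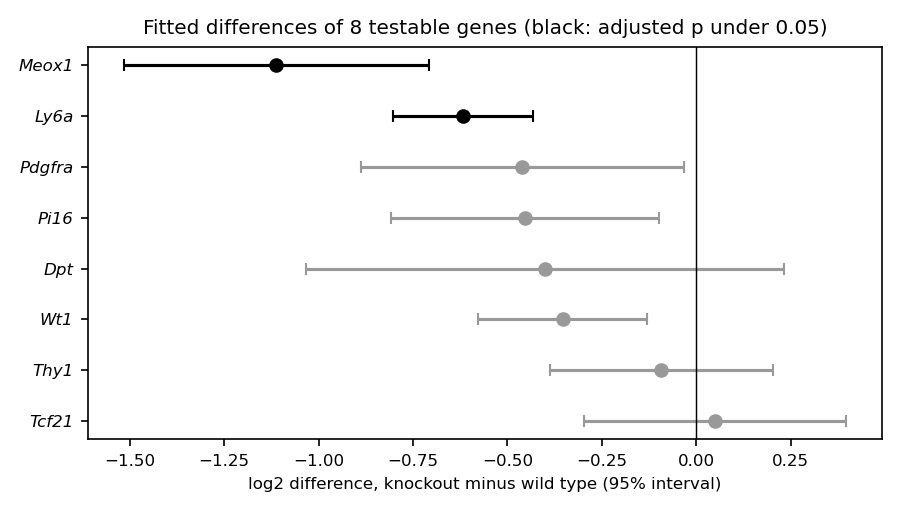
Fitted log2 difference, knockout minus wild type, with its 95% interval for the 8 genes that could be tested (n = 5 each). Meox1 at -1.11 and Ly6a at -0.62 are drawn in black as past an adjusted p of 0.05, while the intervals of Dpt, Thy1 and Tcf21 include 0.

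Within the knockout samples several of the genes ranked the arrays alike. Pdgfra and Dpt both ran, from highest to lowest, through knockout replicates 5, 2, 3, 1 and 4, and Tcf21 and Thy1 both ran through 5, 2, 3, 4 and 1. Meox1 ran 3, 5, 1, 4, 2 and Ly6a ran 4, 3, 2, 5, 1. In wild type Pdgfra, Dpt, Tcf21 and Thy1 each had a different order. The arrays share scaling and tissue makeup, so these orders are a description of 5 samples a genotype.

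After removal of the genotype means, the genes whose log2 values tracked Meox1 most closely over the 10 arrays were Kctd15 (r = 0.96), Hhipl1 (r = 0.95) and Zc3h3 (r = 0.92). For Ly6a they were Gpr132 (r = 0.93), Bysl (r = 0.90) and Krtap11-1 (r = 0.89), and for Wt1 they were Zdhhc23 (r = 0.92), Ccr8 (r = 0.90) and E2f3 (r = 0.89). These were the closest of the tested genes, ranked over only 10 arrays. Of the 20607 tested, genes with a missing value and clone, predicted-gene or accession names were left out of the ranking. None of the 9 passed the test between genotypes.

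Among 22 other fibroblast markers, 5 fell in knockout, 1 rose and 16 did not pass, with a median of -0.26. Over all tested genes the median was 0.03 and 2.97% fell. Of the 22, 15 lay below 0, while Dcn (0.02), Lum (0.03), Fbln1 (0.46) and Medag (0.59) lay above it without passing. Their summed linear signal overlapped and reached higher in knockout, at 755 to 969, than in wild type, at 670 to 836. The fallen genes were Mfap5, a microfibril protein (-1.05, adjusted p = 0.00905), Fstl1, a secreted follistatin-like protein (-0.80, adjusted p = 0.0127), Fbln2, a fibulin (-0.65, adjusted p = 0.018), Postn, the periostin of matrix-remodelling fibroblasts (-1.0, adjusted p = 0.0305), and Cd248, endosialin (-0.69, adjusted p = 0.0314). Ogn, a small leucine-rich proteoglycan, rose by 0.60 (adjusted p = 0.0349). Of 10 genes typical of Pi16-positive adventitial fibroblasts, 2 fell: Anxa3, an annexin (-0.51, adjusted p = 0.019), and Cd55, a complement regulator (-0.52, adjusted p = 0.0491). Among 13 tested genes of activated fibroblasts, Lox, the collagen cross-linking oxidase (-0.88, adjusted p = 0.0147), and Postn fell, with a median of -0.44 over the list.

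Of the 6 other PDGF ligands and receptors, Pdgfb, a ligand of endothelial cells (-0.54, adjusted p = 0.0281), fell, and the mural-cell receptor Pdgfrb differed by -0.49 without passing (adjusted p = 0.0888). Of 18 mesenchymal and epicardial transcription factors, 1 passed, beside 4.94% of all tested genes. It was Tbx20, a T-box factor of heart muscle and endocardium, which fell (-0.48, adjusted p = 0.0341). Tbx20 kept its call in 2 of the 10 fits without 1 array and lost it on the second slide alone (limma adjusted p = 0.0794). In the Ly6 family, 12 of 18 listed relatives of Ly6a were tested. Ly6f and Ly6k passed the test below wild type, but neither was well above background in any knockout sample, so no fold is given. Both entered the test through wild type alone. Their direction turned under normexp (Ly6f 0.11, Ly6k 0.037) and with values raised to each array's floor (Ly6f 0.26, Ly6k 0.071). Neither turn can decide the direction of these dim probes. The floors reached higher in knockout (-4.91 to -3.01) than in wild type (-5.08 to -4.61), which lifts dim knockout values. The fixed normexp offset weighs more on the dimmer knockout arrays, which also lifts dim probes there. Ly6k kept its call in 3 of the 10 fits without 1 array. Ly6c1 (-0.26, adjusted p = 0.105) and Ly6c2 (-0.30, adjusted p = 0.0862) did not pass, although all their knockout values lay below their wild-type values.

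These lists hold 11 called genes outside the Ly6 family, and 4 of them (Mfap5, Fstl1, Fbln2 and Lox) kept their call in each of 10 fits that left out 1 array. On the second slide alone 8 of the 11 were called, with a replicate block 2, and in the fit that includes the atrial score 0. The 2 called members, Meox1 and Ly6a, kept their calls in all 10 fits without 1 array. Both also kept them on the second slide alone (Meox1 -1.14, adjusted p = 0.0376, and Ly6a -0.66, adjusted p = 0.0253). With the replicate block Ly6a kept its call (limma adjusted p = 0.0424) and Meox1 did not (0.0561). In the fit that includes the atrial score both lost it (limma adjusted p = 0.0684 for Meox1 and 0.0551 for Ly6a).

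**Figure D3:**
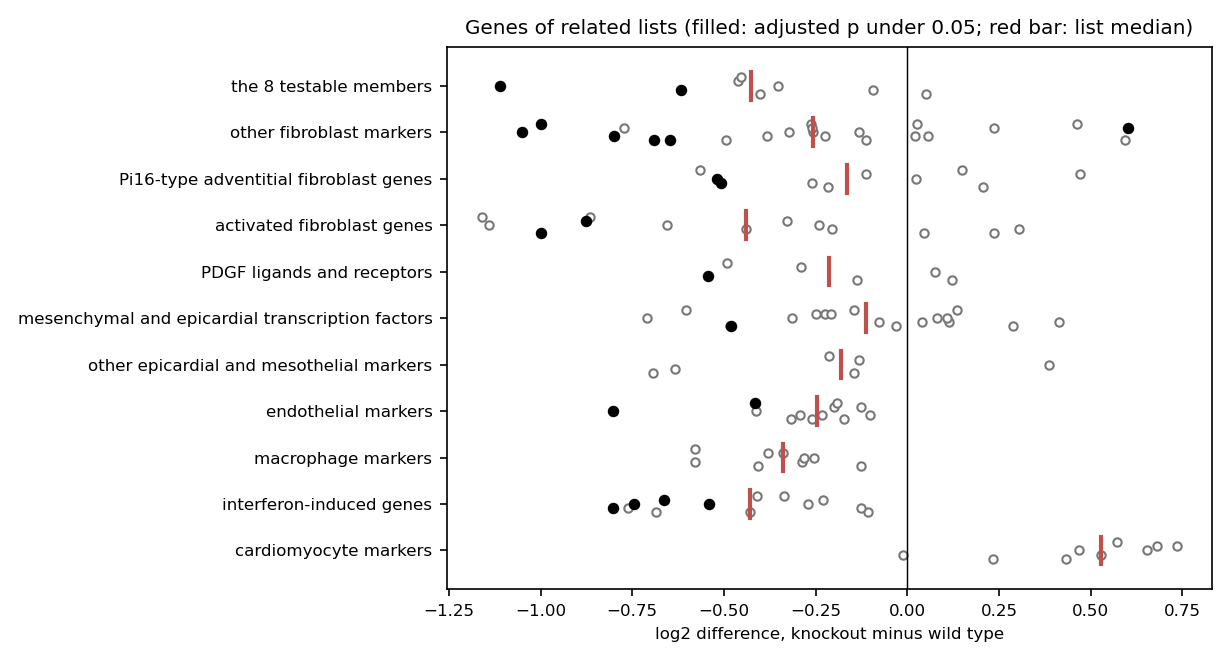
Log2 difference, knockout minus wild type, of each tested gene in the 10-gene set, in related lists and in marker lists of other cell types (one point a gene, filled when the adjusted p is under 0.05, red bar the list median). The fibroblast lists centre below 0, the cardiomyocyte markers above it.

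Markers of other cell types were read beside these genes. The mean log2 signal of 12 endothelial markers was 2.63 to 2.79 in knockout and 2.90 to 3.11 in wild type, with no overlap, while their summed linear signal overlapped, at 120 to 140 in knockout and 138 to 175 in wild type. The receptor Kdr (-0.80, adjusted p = 0.0147) and the mucin-like Emcn (-0.41, adjusted p = 0.0433) fell, Emcn keeping its call in 1 of the 10 fits without 1 array, while the brightest markers Egfl7 (-0.20, adjusted p = 0.371) and Flt1 (-0.29, adjusted p = 0.0616) did not pass. Of 13 tested interferon-induced genes, beside 2.97% of all tested genes, 4 fell: Oasl1, Ifit1, Isg15 and Oasl2. These calls held in 4, 4, 3 and 3 of the 10 fits without 1 array, and in none of the 4 genes with the atrial score or the replicate block. The summed linear signal of that interferon list was 13.9 to 17.3 in knockout and 16.3 to 27.1 in wild type. Ly6a is carried by endothelial cells and is interferon-induced, and the part of either in its fall was not tested.

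Macrophage markers had summed signals of 74.4 to 92.5 in knockout and 92.6 to 115 in wild type, and mean log2 signals that overlapped, at 1.43 to 1.97 in knockout and 1.94 to 2.21 in wild type, with 0 of 9 past the limma test and 8 at an unadjusted p under 0.05 (Lyz2 -0.26, adjusted p = 0.116; Csf1r -0.13, adjusted p = 0.547). Smooth muscle and pericyte markers, with 0 of 10 past the test and 3 at an unadjusted p under 0.05, summed to 137 to 166 in knockout and 130 to 183 in wild type (Acta2 0.046, adjusted p = 0.883; Tagln 0.31, adjusted p = 0.422). Cardiomyocyte markers had summed signals of 3997 to 6117 in knockout and 2568 to 4160 in wild type, with 0 of 9 past the test, 7 at an unadjusted p under 0.05 and a median difference of 0.53 that shrank to 0.06 under quantile normalization. Of the T cell markers, relevant to Thy1, Cd4 rose by 0.62 (adjusted p = 0.0491), a call lost in each of the 10 fits without 1 array (adjusted p 0.0546 to 0.107), while Cd3g and Cd8a were not above background anywhere. Thymocyte, neural and lung markers had 0 of 2, 0 of 7 and 0 of 3 tested genes past the test and 0, 1 and 1 at an unadjusted p under 0.05, with Rag1, Rag2, Ptcra, Sftpc and Sftpa1 above background on none of the arrays. Of the fat markers, 0 of 6 passed and 4 had an unadjusted p under 0.05, and the summed signal of Cfd, Car3, Cidec and Retn was 0.130 to 0.772 in knockout and 0.284 to 6.82 in wild type. For comparison, 5602 of all 20607 tested genes had an unadjusted p under 0.05. The part of these cell types in the members' values was not tested.

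Atrial marker signal was set against the called genes. An atrial score, averaged over log2 values of Sln, Myl4 and Myl7, was -1.68, -2.75, 0.04, 0.57 and 1.56 in knockout, against -3.02, 4.81, 2.00, 3.59 and 3.88 in wild type. Wild-type replicate 1, an array of the first slide, had the lowest score of all 10 samples, with a Meox1 of 0.71 and a Ly6a of 4.87, its group's lowest Ly6a. With the score as a covariate the differences were -0.90 for Meox1 (adjusted p = 0.0684) and -0.57 for Ly6a (adjusted p = 0.0551), neither past the threshold, in a fit where 57 genes passed in place of 1017.

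**Figure D4:**
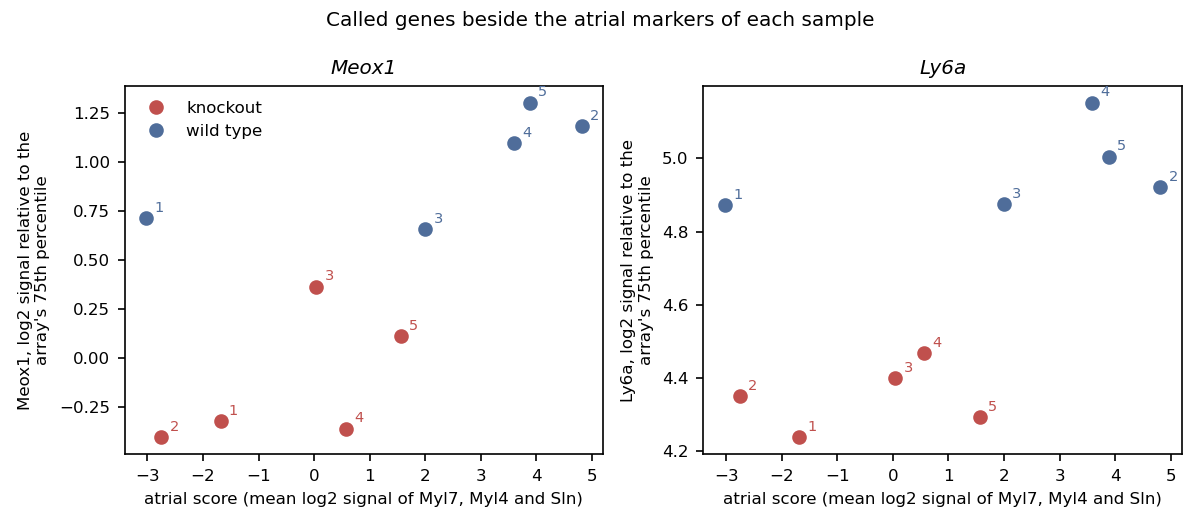
Log2 signal of Meox1 (left) and Ly6a (right) against the atrial score of the same sample, with replicate numbers beside the points, knockout in red and wild type in blue. 4 of the 5 wild-type samples lie right of all knockout samples, and wild-type replicate 1 lies farthest left, with a Meox1 of 0.71 and a Ly6a of 4.87.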

How the data were processed

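RNA from 10 cardiac samples (5 knockout, 5 wild type, grouped by sample title) was read on 1-colour arrays. The deposited array files hold spot intensity, background-subtracted and detrended by Agilent Feature Extraction 10.7.1.1 per the file headers and the submitters' processing notes, with no scaling between arrays. The authors' deposited value table, on a log2 scale with a median of 4.74 in each column, served only as an alternative, and no source used here describes its background treatment or filtering.

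From the intensity, log2 minus the log2 75th percentile of each array was taken over 59305 non-control spots, and spots of one probe were averaged. Probes well above background on at least 4 of 5 arrays of 1 genotype were kept (30693), and each gene was represented by its brightest kept probe (20607 genes). Names came from RefSeq accessions for 32994 probes, 10 of the 13 member probes among them, and otherwise from the array files. Knockout was compared with wild type in limma 3.58.1 (R 4.3.3, lmFit and eBayes), with Benjamini-Hochberg adjustment over all genes and a threshold of 0.05; the fit was tested on simulated data. Secondary probes were taken from the same fit over all kept probes.

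Named genes are the 10 members with every probe, the 3 genes nearest in pattern to Meox1, Ly6a and Wt1, and from each list the 4 called genes of lowest adjusted p at most, or in lists without a call the 2 of lowest p; in marker lists of other cell types, up to 2 of highest signal. Cd248, Ogn, Dcn, Lum, Fbln1, Medag, Pdgfrb, Ly6c1 and Ly6c2, and genes of other cell types outside that rule, were named after their values were seen. The members and lists were chosen with earlier results of these data known. The labels number the replicates without saying that each is a separate mouse, so p-values reflect sample-to-sample spread that may be technical. The number of arrays limits the precision. Alternatives were normexp background correction (offset 50), other scalings and filters, slide, replicate block, atrial and fat scores, the value table and leaving out arrays.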

Additional observations from a re-analysis of the deposited data

Results flagged for a closer look

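Dpt in wild-type replicate 2 stood apart from its group, at 0.849 on the log2 scale where the nearest of the other 4 wild-type samples was at 0.315. It was the 1 such sample among 26 groups of 5 examined, and chance marks about 1 in 20 groups. This sample also had the highest atrial score (4.81) and the highest fat score (0.29) of the 10.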

How the results depend on the processing

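Over all genes, 1017 passed the threshold, against 3100 under normexp, 173 with no filter on dim probes, 458 on the second slide alone, 57 with the atrial score and 8 with atrial and fat scores as covariates. Leaving out 1 array at a time gave 282 to 940, with 434, 368 and 469 without knockout replicates 1, 2 and 4, and 381, 304 and 282 without wild-type replicates 2, 4 and 5. The share of calls that rose was 39.8% in the reported fit, 71.6% under normexp, 53.2% without the filter and 52.4% with values raised to each array's floor, an alternative added after seeing the data. The 2 called members became 0 with the atrial score and 0 with both scores (Meox1 -0.85, adjusted p = 0.175; Ly6a -0.60, adjusted p = 0.133), and stayed 2 in every fit without 1 array (2 to 2), where Meox1 was -1.23 to -1.03 and Ly6a -0.65 to -0.57. Pi16 reached -0.74 (adjusted p = 0.0206) without wild-type replicates 1 and 2 and knockout replicate 3, a choice also made after seeing the data. Tcf21 turned to -0.052 without knockout replicate 5 and -0.018 without wild-type replicate 3, in a range of -0.052 to 0.14 over the fits without 1 array. The replicate block gave 164 genes and 1 called member, Meox1 having an adjusted p of 0.0561. Same-numbered samples deviated together at r of -0.11 to 0.05, and none matched its own number best. The labels do not say whether equal numbers mark paired samples, and correlations over so few samples cannot decide it. The causes of these shifts were not tested. Dim signal over background limits Msln, Upk3b and the secondary Pdgfra probes.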
